A study of Mus musculus with 50 samples.

Results

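The genes described here are 38 mouse genes known to be imprinted, together with a few neighbours that share their domains, and the question was how accessible their chromatin was in hippocampal neurons and whether that accessibility depended on where the mice grew up. A merged peak was taken as belonging to a member when it overlapped the gene or lay within 2 kb of it, which gave 259 of the 144465 merged peaks. Of these, 38 were promoter peaks, lying within 2 kb of a transcription start site (TSS), and 221 lay elsewhere in or beside the genes. At least 1 peak was found for 37 of the 38 genes, the exception being Mkrn3, and 33 genes had a promoter peak. Calcr and Slc22a18 had none, and Rtl1 and Impact had no assigned TSS, so that their peaks were counted among the others. In 3 cases a pair of genes shared a merged promoter peak (Peg3 with Usp29, Peg10 with Sgce, Zrsr1 with Commd1), and its counts cannot be divided between the genes. The 33 genes therefore had 30 distinct leading promoter peaks, the leading peak being the one with the most counts over all libraries. Chromosome 7 held 76 of the 259 peaks, including 12 of the 38 promoter peaks.

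ATAC-seq, in which a transposase cuts accessible DNA, was applied to NeuN-positive (neuronal) nuclei sorted out of the ventral hippocampus of C57BL/6JRj males. The mice came from one breeding stock and were born to time-mated dams that had been sent to 5 rearing facilities (RF1 to RF5). At time point 2 (TP2) the mice had been moved from their RF to a single test laboratory and were 14 weeks old, and at time point 1 (TP1) they were sampled in their RF at 8 weeks. Each RF gave 5 libraries per TP, 50 in all, each from one side of the brain of a mouse. According to the authors, each TP2 mouse was a littermate of a TP1 mouse and had not been used in behavioural tests. The sample labels do not name these pairs, and the tests over both TPs treated the libraries as unrelated. No group had a transgene, a drug or a knockout. The groups differed in the whole environment of the RF, which included the light cycle (reversed in RF3, RF4 and RF5) and the supplier of the diet, so that single features of the housing cannot be told apart. All nuclei of a TP were amplified and sequenced together, so that age, the move, and the sequencing run cannot be told apart between TPs.

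Genomic imprinting silences one parental copy of a gene according to whether it came through the egg or the sperm. The choice is carried by DNA methylation at an imprinting control region, which in somatic cells is kept on one allele by the zinc-finger protein ZFP57 bound to its TGCCGC core motif when methylated, and one such region often governs a whole cluster of genes. Many of these genes control growth, and in the brain they are known for roles in neuronal differentiation, maternal care and sleep. The mice were inbred, so the 2 parental alleles carry the same sequence and every value below sums both of them, and the counts also sum all NeuN-positive nuclei, so that fewer nuclei with an open site and a less open site in each nucleus cannot be told apart.

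The 250 bases upstream of the TSS are shown for 5 members on which the results turn. The peak of Peg3 was the most accessible among the promoters of members with an assigned TSS. Plagl1 and Nap1l5 stood highest in RF1 at TP1, and Ndn stood lowest in RF3 at TP2. Mest is shown as the promoter with the most matches among these. The sequences are from RefSeq (GRCm38.p6), written 5′ to 3′ on the strand of the gene, and capitals mark TGCCGC or its reverse complement GCGGCA. They lie at chr7:6730420-6730669 (minus strand, Peg3), chr10:13090582-13090831 (plus, Plagl1), chr6:58907127-58907376 (minus, Nap1l5), chr6:30737800-30738049 (plus, Mest) and chr7:62348027-62348276 (plus, Ndn).
Peg3: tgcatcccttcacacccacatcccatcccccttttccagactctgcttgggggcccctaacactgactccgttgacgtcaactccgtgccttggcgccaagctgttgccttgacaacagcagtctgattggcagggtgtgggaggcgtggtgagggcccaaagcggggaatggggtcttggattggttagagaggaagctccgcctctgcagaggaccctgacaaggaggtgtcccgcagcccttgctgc
Plagl1: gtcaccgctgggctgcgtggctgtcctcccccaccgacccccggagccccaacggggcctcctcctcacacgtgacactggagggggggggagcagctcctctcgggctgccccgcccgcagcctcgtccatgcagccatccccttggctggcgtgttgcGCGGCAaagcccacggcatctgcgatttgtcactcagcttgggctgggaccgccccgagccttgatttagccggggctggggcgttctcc
Nap1l5: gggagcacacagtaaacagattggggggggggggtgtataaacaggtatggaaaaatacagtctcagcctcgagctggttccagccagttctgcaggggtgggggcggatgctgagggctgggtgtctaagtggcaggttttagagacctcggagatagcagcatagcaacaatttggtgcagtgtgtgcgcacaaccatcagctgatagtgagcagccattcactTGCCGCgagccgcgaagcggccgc
Mest: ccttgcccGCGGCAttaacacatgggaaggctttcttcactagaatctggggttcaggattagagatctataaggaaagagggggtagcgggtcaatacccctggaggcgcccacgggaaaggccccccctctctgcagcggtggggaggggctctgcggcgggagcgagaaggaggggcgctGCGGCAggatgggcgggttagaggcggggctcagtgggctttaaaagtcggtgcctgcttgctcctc
Ndn: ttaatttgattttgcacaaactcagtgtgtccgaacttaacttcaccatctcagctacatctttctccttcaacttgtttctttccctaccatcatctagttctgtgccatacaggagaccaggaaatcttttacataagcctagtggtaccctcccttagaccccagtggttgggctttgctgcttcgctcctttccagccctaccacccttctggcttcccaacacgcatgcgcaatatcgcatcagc

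Searched on both strands, the motif occurred in 8 of 50 member windows (16%), those of Calcr, Copg2, Mest (with 2 overlapping windows that hold the same matches), Nap1l5, Plagl1, Zdbf2 and Zim1, against 2850 of 32851 windows of all genes (8.68%). Among windows with a merged peak over the TSS the shares were 6 of 33 (18.2%) for the members and 14.0% of 17047 for all genes. The median GC content of these windows was 62.4% for the members and 59.6% for all genes. A match is a description of the letters and was not tested as a binding site. The windows of Peg3 and Ndn held no match, and their GC contents were 60.4% and 47.2%.

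Accessibility of the member promoters differed widely between genes. Levels are given as counts scaled by library size (CPM) per kb of peak, averaged over the 25 libraries of a TP, so that peaks of different width can be set side by side. The shared promoter of Peg3, a zinc-finger gene expressed from the paternal allele, and Usp29, a deubiquitinase, stood highest of the members with an assigned TSS. It had 30.5 CPM per kb at TP2 and 37.0 at TP1, above 96.9% and 97.0% of all 16980 promoter peaks. Ube3a, the ubiquitin ligase lost in Angelman syndrome, followed with 24.1 at TP2 and 29.2 at TP1, then Inpp5f, an inositol phosphatase, with 17.2 and 22.6, Trappc9, a vesicle tethering factor, with 16.9 and 22, and Copg2, a coatomer subunit, with 14.1 and 17.6. At the other end, Igf2, a fetal growth factor expressed from the paternal allele, had 1.3 CPM per kb at TP2 and 1.99 at TP1, and Dlk1, a Notch-related ligand, had 1.66 and 2.37. These compare with medians of 5.85 at TP2 and 6.28 at TP1 over all promoter peaks, and 23 of the 33 genes at TP2 and 24 at TP1 lay above those medians.

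**Figure D1:**
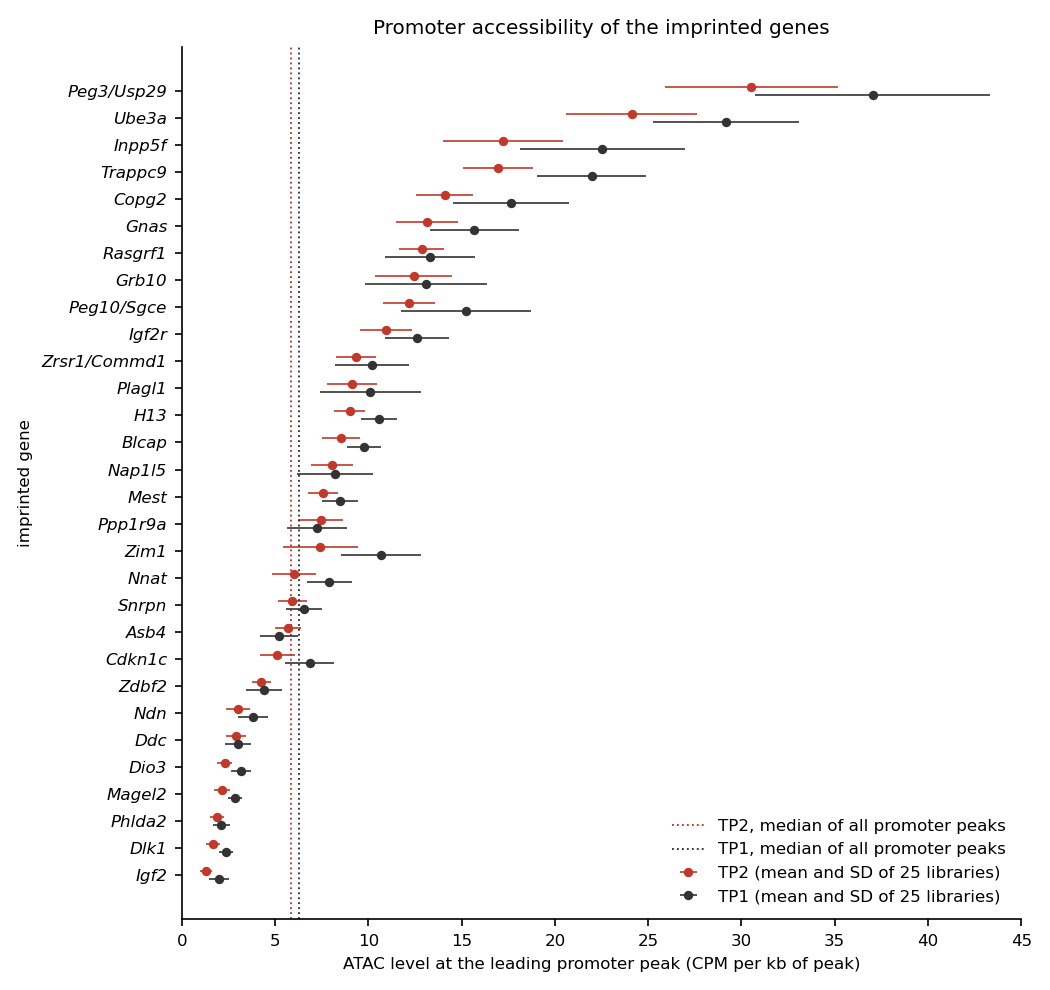
Accessibility of the leading promoter peaks of the imprinted genes in CPM per kb of peak at TP2 and TP1 (means over 25 libraries each). The Peg3 and Usp29 peak stood highest at 30.5 and 37.0, and Igf2 lowest at 1.3 and 1.99.

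Members of one cluster did not share a level. In the Snrpn domain, where the paternal allele expresses Snrpn (a spliceosomal protein), Ndn and Magel2 (both of the MAGE family), the levels at TP2 and TP1 were 24.1 and 29.2 CPM per kb for Ube3a, 5.91 and 6.53 for Snrpn, 3.01 and 3.83 for Ndn and 2.18 and 2.87 for Magel2. In the Kcnq1 domain the cell-cycle inhibitor Cdkn1c had 5.13 at TP2 and 6.86 at TP1, while the placental growth repressor Phlda2 had 1.89 and 2.12. In the Peg10 domain the levels were 12.2 and 15.2 for the peak of Peg10 (a retrotransposon-derived gene) and Sgce (ε-sarcoglycan), 7.45 and 7.26 for Ppp1r9a (the actin-binding neurabin) and 5.69 and 5.22 for Asb4.

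The control transcripts and nested retrogenes of the domains were also accessible. Peg13, a non-coding gene inside Trappc9, had 13.6 CPM per kb at TP2 and 14.3 at TP1 at chr15:72808892-72811173. Mcts2, a retrogene inside H13, had 10.4 and 12.1 at chr2:152685947-152688285. Meg3, the maternally expressed RNA beside Dlk1, had 10.1 and 11.5, so that its promoter was more open per kb than that of Dlk1. Kcnq1ot1 had 6.59 and 8.32, and the peak assigned to H19, which lay upstream of the gene, had 4.43 and 4.84. Airn, the antisense RNA that silences Igf2r, had 3.18 and 3.91, against 11 and 12.6 for the Igf2r promoter itself. Among peaks that could not be assigned to a member's TSS, 2 stood out after their values were seen. A peak inside Impact, a regulator of translation (chr18:12972086-12974607), had 42.1 CPM per kb at TP2 and 48.8 at TP1, above every member promoter. A peak inside Inpp5f (chr7:128687598-128691940) had 9.14 at TP2 and 9.08 at TP1.

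Some members were open at one of several annotated TSSs. At Grb10, an adaptor that dampens insulin and growth factor receptors, no peak lay within 2 kb of the TSS at 12037420 on chromosome 11, while a peak of 26 CPM at TP2 and 27.4 at TP1 lay beside the TSS at 12027971. At Gnas, which encodes the stimulatory G protein subunit, the TSS at 174284320 on chromosome 2 had no peak within 2 kb, and 2 peaks lay over the downstream TSSs, the leading one with 13.1 CPM per kb at TP2 and 15.7 at TP1. TSSs of Mest, Asb4, Ddc and Snrpn likewise lay in or beside a peak at some annotated positions and had none at others.

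Several features of the whole series bear on the tests. Counts in peaks per library were 5111223, 26030443 and 36401717 (lowest, median, highest) at TP2, against 33663505, 44453692 and 77396321 at TP1, so that values at TP2 carry the larger counting error. Of 100 pairs of libraries within a group, 13 at TP2 and 7 at TP1 lay within the sampling noise when a tolerance of 2% was allowed, and 5 at each TP did without it. Summed and counted as 1 sample, the near-identical libraries leave 3 to 5 samples per RF at each TP, and the effect is given beside the counts of the RF tests within a TP. For the interaction and the TP comparison this was not run. RF1 replicates 3 and 5 and RF2 replicate 5 at TP2 stood apart from the rest of their groups, since the variance between them and their group was 1.69 to 9.76 times the sampling noise, while pairs within RF3, RF4 and RF5 at TP2 reached at most 1.21 times. At TP1 the pairs within RF1 differed most, by 2.86 to 23.5 times the sampling noise, against at most 3.65 times within the other RFs. RF1 replicate 3 was also the shallowest library. The summed promoter CPM of 8 of 8 neuron markers was 248.5 to 298.9 at TP2 and 238.5 to 340.5 at TP1. Sums for markers of other cells were 10.1 to 16 at TP2 and 9.83 to 17.2 at TP1 for 4 of 4 astrocyte markers. They were 4.42 to 10.2 and 7.29 to 12.8 for the 2 of 4 oligodendrocyte markers with a promoter peak, and 7.81 to 11 and 6.57 to 11.1 for 2 of 4 microglial. For 3 of 5 vascular markers they were 12.8 to 20.3 and 13.9 to 19.9, and for 1 of 3 choroid plexus markers 5.85 to 10.7 and 7.44 to 10.4. These sums run over unequal numbers of peaks of unequal width, so they do not measure purity. Per kb of peak at TP2, the neuron markers ranged from 2.17 (Gad2) to 21.2 (Slc17a7). The other markers ranged from 1.54 (Tmem119) to 3.65 (P2ry12), so that Gad2 lay within their range.

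At TP2, after the mice had shared one laboratory, the RF still separated many member peaks, although mostly by small amounts. By edgeR's quasi-likelihood F-test (false discovery rate, FDR, below 0.01), 77 of 259 member peaks (29.7%) and 24 of 38 member promoter peaks (63.2%) depended on the RF, beside 30.8% of all peaks and 58.3% of the promoter peaks of all genes, so the members' shares lay near the background. With the near-identical libraries summed and counted once, 24 member peaks depended on the RF, 12 of them promoter peaks. The number was 114 on leaving out RF1 replicates 3 and 5 and RF2 replicate 5. Here and below, counts under other settings stand without the share of all peaks unless it is printed. Such counts do not set the members apart from other peaks.

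When each RF was set against the mean of the other 4 (calls needed an FDR below 0.01 and a log2 fold change of 0.5 or more in either direction), 6 pairs of a member peak and an RF were called at TP2, 2 of them promoter peaks, beside 1.77% of all pairs over all peaks and 1.26% over promoter peaks. Both promoters were lower in RF3, a call made for 0.888% of all peaks and 2.11% of promoter peaks. Ndn, whose product restrains growth of postmitotic neurons, had 1.74, 1.64, 1.48, 2.50 and 1.93 CPM in RF3, against 2.05, 2.83 and 3.94 (lowest, median, highest) in the other RFs. A single RF3 library overlapped those of the other RFs and the remaining 4 lay below them, and the log2 fold change was -0.64 ± 0.14 (SE, edgeR FDR 3.12e-04). Dlk1 had 1.61, 1.29, 1.52, 0.877 and 0.909 CPM in RF3, against 1.136, 1.88 and 2.21 in the other RFs, with overlap, and a log2 fold change of -0.55 ± 0.17 (edgeR FDR 0.0086). Both are weak peaks, and both calls depended on the choice of libraries. The Dlk1 call was lost on leaving out any one replicate number (FDR 0.0109 to 0.0628), and the Ndn call without replicate 2 (FDR 0.0116). With near-identical libraries summed, the number of called pairs was 3, of which 1 was a promoter peak. A merged peak needed a MACS2 peak in at least 3 of 5 libraries of a group, and 5 of the 6 calls lay in peaks that came from fewer than all 10 groups of RF and TP, so that how the peaks were chosen favours some of these differences. Dlk1 entered from 5 groups, and at TP2 a MACS2 peak lay there in 0 of 5 RF3 libraries, against 7 of 20 in the other RFs.

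Without RF1 replicates 3 and 5 and RF2 replicate 5 the number of called pairs at TP2 was 30, 8 of them promoter peaks, and Ndn (-0.66, edgeR FDR 2.52e-05) and Dlk1 (-0.52, edgeR FDR 0.008) remained among them. RF1 then held 11 of the called pairs, which was 4.25% of the 259 member peaks, beside 11.5% of all peaks. RF3 held 8, or 3.09%, beside 6.28%, so the members' shares lay below those of all peaks. The promoters added in RF1 were Zim1 with a log2 fold change of 0.69, against 0.43 with all libraries, and Inpp5f with 0.55, against 0.39, while a weak peak of Zdbf2 stood at -0.79. In RF3, Peg3 with Usp29 passed at -0.50, and the second Igf2 peak stood at -0.54 in RF3 and -0.56 in RF5.

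At stronger promoters the RF3 difference at TP2 was somewhat smaller and its error much smaller. Peg3 with Usp29, named here after its values were seen, had 82.7, 78.3, 81.4, 78.3 and 75.4 CPM in RF3 at TP2, against 95.2, 111.8 and 128.1 in the other RFs. The groups did not overlap, and the log2 fold change of -0.48 ± 0.04 (edgeR FDR 3.70e-14) fell just short of the size threshold. Ube3a had 39.5, 35.3, 36.3, 37.7 and 35.1 CPM in RF3, against 38.9, 50.9 and 57.1 in the other RFs, with a single RF3 library inside their range and a log2 fold change of -0.41 ± 0.05. All 12 member promoter peaks on chromosome 7 were below 0 in RF3, with a median log2 fold change of -0.40, while the 26 on other chromosomes had a median of -0.09. The chromosome as a whole showed the same direction, since 1241 of the 1277 promoter peaks of all genes on chromosome 7 were below 0, with a median of -0.36. Over all 38 member promoters the median was -0.25, against -0.15 over all promoter peaks, and it was -0.13 when a loess curve against abundance was removed and -0.12 when the mean of the surrounding 1 Mb was. The summed neuron markers were also lowest in RF3 at TP2, with a mean of 253.0 CPM against 260.7 to 289.4 in the other RFs, and the astrocyte and oligodendrocyte sums averaged 12 and 6.03 CPM, against 10.8 to 13.9 and 5.56 to 8.94. Their part in the result was not tested.

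The 4 other calls at TP2 lay outside promoters. A peak in Ppp1r9a had 1.39, 1.68, 0.584, 1.75 and 3.03 CPM in RF1, against 2.03, 2.83 and 3.89 in the other RFs, a log2 fold change of -0.64 with overlap. A peak of Slc22a18, an organic cation transporter of the Kcnq1 domain, had 2.15, 1.20, 1.80, 1.22 and 1.26 CPM in RF4, against 0.570, 1.05 and 1.39 in the other RFs (0.62), and a peak of Snrpn had 3.38, 2.48, 3.00, 3.75 and 2.22 in RF2, against 1.40, 1.90 and 3.04 (0.59). In all 3 the groups overlapped. The last was a peak in Inpp5f that was higher in RF4 by 0.54 on the log2 scale (edgeR FDR 2.53e-05).

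At TP1, in the RFs themselves, more of the promoters differed. The RF test called 108 member peaks (41.7%) and 34 of 38 member promoter peaks (89.5%), beside 59.1% of all peaks and 81.6% of the promoter peaks of all genes. Thus the share among all member peaks lay below that of all peaks, and the share among promoters a little above that of all promoters. With near-identical libraries summed, 94 member peaks were called, 30 of them promoter peaks. The contrasts of one RF with the other 4 called 43 pairs, 18 of them promoter peaks, beside 4.99% of all pairs over all peaks and 4.81% over promoter peaks. RF1 accounted for 28 of the 43 and for 12 of the 18, RF4 for 6 and 5, RF5 for 4 and 0, RF3 for 4 and 1, and RF2 for 1 and 0. With near-identical libraries summed, 40 pairs were called, 17 of them promoter peaks. Of the 43 calls 21 lay in peaks that came from fewer than all 10 groups, 18 of them from 5 groups or fewer. In RF1 this held for 1 of the 9 promoter calls in the higher direction and for all 3 in the lower, and in RF4 for none of the 6 calls.

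**Figure D2:**
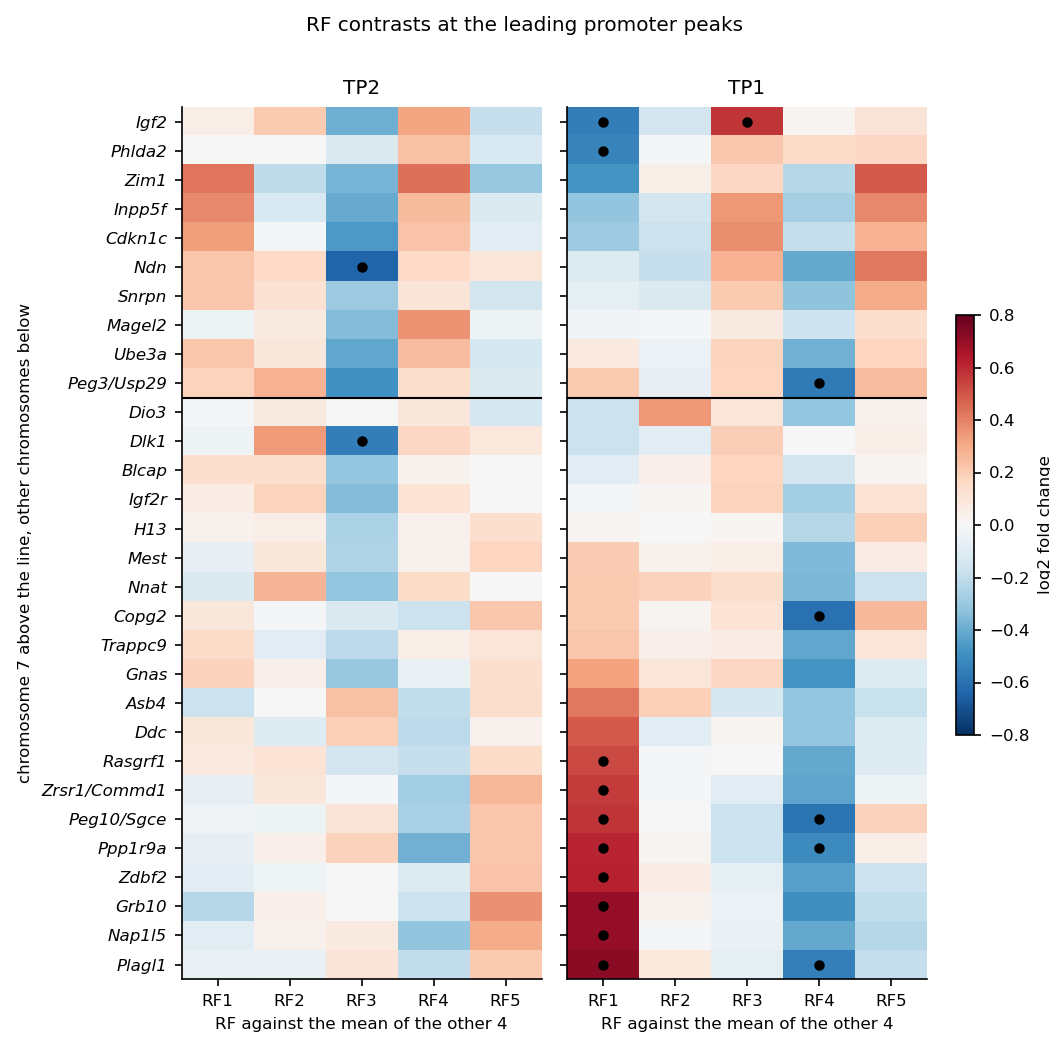
Log2 fold change of each leading promoter peak (rows; chromosome 7 genes are set apart by the line) in each RF against the mean of the other 4 (columns), at TP2 and at TP1. RF3 is low on chromosome 7 at TP2 (median -0.40 over the 12 promoter peaks there); at TP1 RF1 is high off chromosome 7 (median 0.31) and RF4 is low (median -0.36).

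In RF1 at TP1, 9 of the 38 member promoter peaks were higher and 3 were lower, beside 8.79% of all promoter peaks higher and 5.28% lower. Plagl1, a zinc-finger transcription factor that arrests the cell cycle, had 20.01, 18.8, 16.3, 20.3 and 23.7 CPM in RF1, against 9.49, 12.5 and 16.1 in the other RFs, a log2 fold change of 0.72 ± 0.05 (edgeR FDR 4.83e-17). Nap1l5, a retrogene related to nucleosome assembly proteins, had 25.6, 27.8, 24.5, 26.9 and 32.9 CPM in RF1, against 14.4, 17.2 and 20.6 in the other RFs (0.70, edgeR FDR 3.27e-18). Grb10 had 34.5, 42.2, 37.2, 39.3 and 43.9 CPM in RF1, against 19.4, 25.3 and 29.6 in the other RFs (0.70, edgeR FDR 8.02e-19). In each of these 3 genes every RF1 library lay above every library of the other RFs. How often this held over all promoter peaks was not counted, here or where a lack of overlap is named for other RFs. It is therefore not shown to be a trait of the members.

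At 2 further promoters every RF1 library likewise lay above those of the other RFs. Zdbf2, a paternally expressed zinc-finger gene, had 15.9, 15.7, 13.6, 15.5 and 15.6 CPM in RF1, against 8.10, 10.5 and 12.2 in the other RFs (0.61, edgeR FDR 4.04e-15). Ppp1r9a had 22.6, 22.7, 19.6, 21.6 and 24.6 CPM in RF1, against 10.6, 15.4 and 18 (0.61, edgeR FDR 3.00e-15). The remaining calls in this direction were Peg10 with Sgce at 0.57, Zrsr1 (a splicing factor retrogene) with Commd1 (its host) at 0.56, Rasgrf1, a neuronal activator of Ras, at 0.53, and a second, weak peak of Zdbf2 at 0.50. This second Zdbf2 peak entered the set through RF1 at TP1 alone, so that the choice of peaks favours a higher value there. A MACS2 peak lay over it in 4 of 5 RF1 libraries at TP1, against 4 of 20 in the other RFs. The promoters that were lower in RF1 all lay on distal chromosome 7 and were weak, namely both Igf2 peaks at -0.55 and -0.83 and Phlda2 at -0.53. Of the 1277 promoter peaks of all genes on chromosome 7, 1114 were below 0 in RF1 at TP1, with a median of -0.27. The Igf2 peaks came from 2 groups each, and at TP1 a MACS2 peak lay over each of them in 1 of 5 RF1 libraries, against 11 and 10 of 20 in the other RFs. The peak assigned to H19, which shares its control region with Igf2, was also lower in RF1, with a log2 fold change of -0.57 (edgeR FDR 9.25e-12). This peak (chr7:142580104-142582420) lay upstream of the H19 gene end at 142578146 and reached the 2 kb window only at its edge. The summed neuron markers were highest in RF1 at TP1, with a mean of 322.3 CPM against 244.2 to 291.0 in the other RFs, and their part in these values was not tested.

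In RF1 at TP1 most member promoters shared the direction of the peaks around them. Of the 38 member promoter peaks, 29 had the same sign in RF1 at TP1 as the median of the other peaks in their 1 Mb, and 13 lay within the quartiles of those neighbours. The sign was shared by 34 in RF3 at TP2 but by only 19 in RF4 at TP1. These counts were not made over all promoter peaks, so they do not set the members apart. The fold change of Peg10 with Sgce (0.57) lay close to the 0.51 of its neighbourhood and so did that of Ppp1r9a (0.61), and Igf2 (-0.55) and Phlda2 (-0.53) lay close to neighbourhood medians of -0.52 and -0.49. Zdbf2 stood apart from its surroundings, with 0.61 against a median of 0.04 over 65 other peaks, and Plagl1 stood at 0.72 against 0.28, Nap1l5 at 0.70 against 0.45 and Grb10 at 0.70 against 0.37. When the regional mean was taken out as an offset, Zdbf2 was still called at 0.55, and Plagl1 stood at 0.42, Grb10 at 0.36 and Nap1l5 at 0.28, under the size threshold. Peg10 with Sgce was left with 0.05, Ppp1r9a with 0.09, Igf2 with -0.05 and Phlda2 with -0.07.

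**Figure D3:**
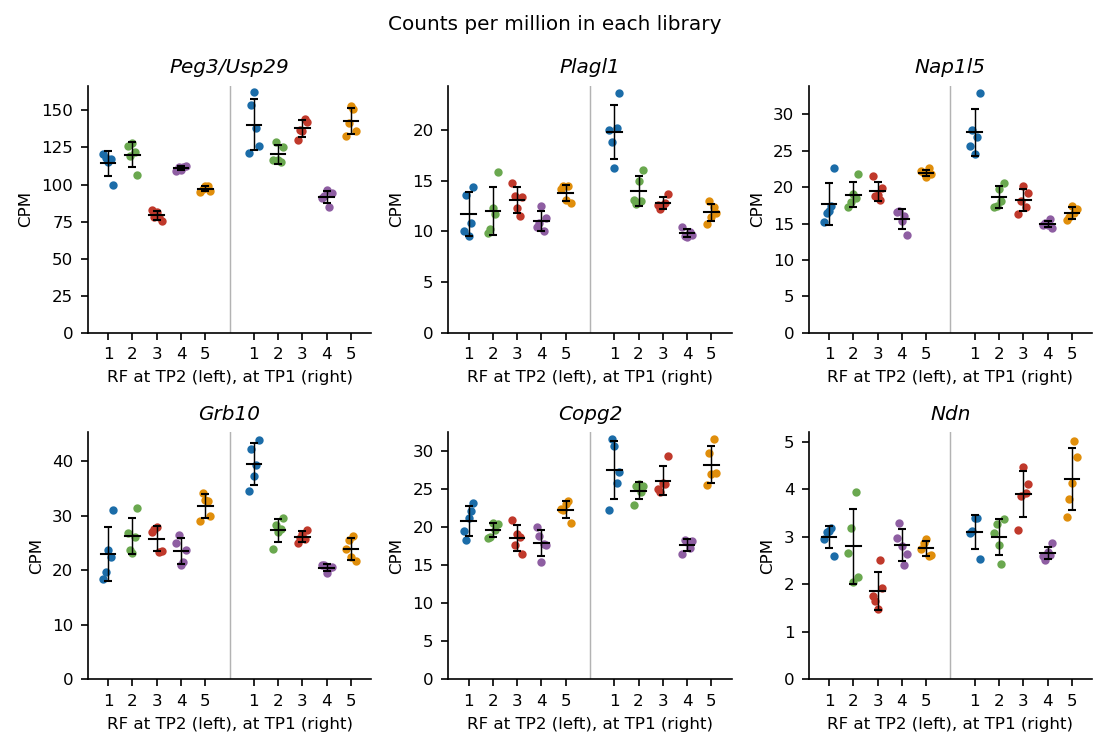
CPM of selected member promoter peaks in each of the 50 libraries, by RF, with TP2 on the left and TP1 on the right of each panel with the mean and SD as lines. In Plagl1, Nap1l5 and Grb10 the 5 RF1 libraries lie above all others at TP1, and for Peg3 and Usp29 those of RF4 lie lowest at TP1 (84.7 to 96.0) and those of RF3 lowest at TP2 (75.4 to 82.7).

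In RF4 at TP1 every call among the members was in the lower direction. Of the member peaks, 6 were lower, 5 of them promoter peaks, beside 1.88% of all peaks and 5.88% of promoter peaks. Copg2 had 16.4, 18.4, 18.1, 17.3 and 18.3 CPM in RF4, against 22.3, 25.8 and 31.7 in the other RFs, a log2 fold change of -0.60 ± 0.05 (edgeR FDR 2.26e-13). Peg3 with Usp29 had 90.8, 92.0, 96.0, 84.7 and 94.1 CPM in RF4, against 115.0, 136.0 and 162.2 in the other RFs (-0.56 ± 0.05, edgeR FDR 4.27e-14). Neither promoter overlapped between RF4 and the other RFs. Peg10 with Sgce had 29.8, 36.3, 35.1, 37.6 and 32.1 CPM in RF4, against 38.9, 49.7 and 76.2 (-0.59), also without overlap, and Plagl1 (-0.55) and Ppp1r9a (-0.51) completed the list. The mean of the other 4 RFs included RF1, where Peg10 with Sgce, Plagl1 and Ppp1r9a were called higher. The RF1 contrast likewise included RF4, so these calls are not independent of those in RF1. Mean CPM of Plagl1 was 9.83 in RF4, against 13.98 in RF2, 12.8 in RF3 and 11.9 in RF5. For Ppp1r9a it was 12.04, against 16.15, 14.5 and 16.36. A contrast of RF4 without RF1 was not tested. The median over the 38 member promoters was -0.32, against -0.19 over all promoter peaks, and 32 of 38 were below 0.

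These RF4 values depended on the scaling. With the loess curve removed the median over the member promoters was -0.16 in RF4, against -0.32 without that step, and in RF1 at TP1 it was 0.06, against 0.21. Across 12949 promoter peaks of all genes the RF4 fold change at TP1 correlated with the mean log CPM (r = -0.523) and with GC content (r = -0.386), a description over peaks that share libraries. With the same step, Peg3 with Usp29 in RF4 at TP1 stood at 0.0006 (edgeR FDR 0.992), while Copg2 stood at -0.38, Plagl1 at -0.47 and Ppp1r9a at -0.40, all under the size threshold. With the regional offset Peg3 with Usp29 stood at -0.54 and Copg2 at -0.65, against neighbourhood medians of -0.00 and 0.08. The summed neuron markers were also lowest in RF4 at TP1, with a mean of 244.2 CPM against 284.2 to 322.3 in the other RFs, and the astrocyte sum was 10.6 against 10.9 to 16.4. The microglial sum was highest there, at 9.93 against 7.81 to 9.70, and the oligodendrocyte sum was 9.06 against 7.98 to 11.6. Their part in the result was not tested.

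**Figure D4:**
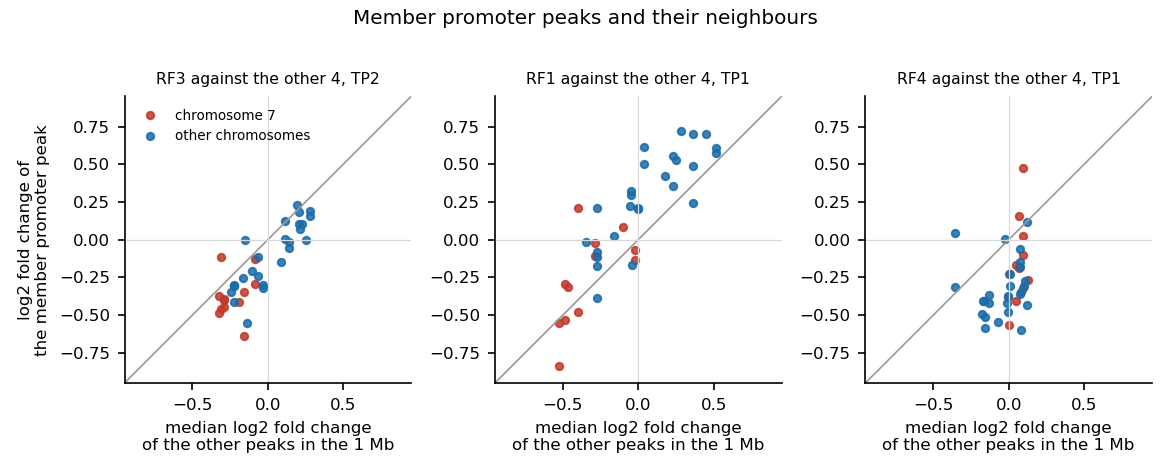
Log2 fold change of each member promoter peak (vertical) against the median of the other peaks in its 1 Mb (horizontal), for RF3 at TP2, RF1 at TP1 and RF4 at TP1, with chromosome 7 peaks marked. The sign was shared by 34, 29 and 19 of the 38 peaks in these 3 contrasts, and this was not counted over all promoter peaks.

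RF3 at TP1 had 1 promoter call, Igf2, which was higher by 0.57 ± 0.12 on the log2 scale (edgeR FDR 2.26e-04), with 2.41, 3.14, 2.63, 3.27 and 2.95 CPM in RF3, against 1.18, 1.97 and 2.84 in the other RFs, and the groups overlapped. A MACS2 peak lay there in 5 of 5 RF3 libraries, against 7 of 20 in the other RFs, and RF3 at TP1 was 1 of the 2 groups through which this peak entered the set, so that the choice of peaks favours a higher value in RF3. Igf2 was thus called in opposite directions in RF1 and RF3, although each contrast includes the libraries of the other RF, so these calls are not independent. The astrocyte and oligodendrocyte marker sums in RF3 at TP1 were 16.4 and 11.6 CPM, above the other group means of 10.6 to 14.1 and 7.98 to 9.06. The vascular sum was also highest there, at 18.7 against 14.3 to 17.2, and the part of these markers in the Igf2 value was not tested.

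Outside promoters, 25 pairs were called at TP1. Igf2r, the receptor that clears IGF2, held 6 peaks lower in RF1 and 2 higher in RF5, within a neighbourhood whose median in RF1 was itself -0.34. The one with the largest change had 0.740, 0.871, 1.16, 0.719 and 0.792 CPM in RF1, against 0.889, 1.51 and 2.39 in the other RFs (-0.79). It was also called higher in RF5 and entered the set through RF5 at TP1 alone, with a MACS2 peak in 0 of 5 RF1 libraries. The choice of peaks thus favours both of its calls, which also share libraries and are not independent. The other Igf2r peak that was higher in RF5 entered through RF2 and RF5 at TP1, which favours a higher value in RF5. A peak of Slc22a18 had 0.807, 1.60, 1.3, 1.3 and 1.05 CPM in RF5, against 0.439, 0.703 and 1.03 in the other RFs (0.78). This peak, 140 bases wide with a mean of 26.4 counts, entered the set through RF5 at TP1 alone, so that the choice of peaks favours a higher value there. Another Slc22a18 peak had 0.999, 0.837, 1.12, 1.16 and 0.552 in RF1, against 1.18, 1.55 and 2.08 (-0.74), with no overlap, and this was the peak called higher in RF4 at TP2. It entered through RF2, RF3 and RF5 at TP1, with a MACS2 peak in 0 of 5 RF1 libraries, so that the choice of peaks favours a lower value in RF1. Peaks inside Ppp1r9a, Asb4 and Ddc (aromatic amino acid decarboxylase) were higher in RF1, in neighbourhoods whose medians were 0.18 to 0.51. The Peg13 peak was higher in RF1 by 0.48 ± 0.05 (edgeR FDR 8.86e-13) and the Impact peak by 0.47, while in RF4 the Impact peak stood at -0.45 (edgeR FDR 5.82e-11). None of these 3 values reached the size threshold.

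For part of the members the RF differences changed between TPs. The test of the RF by TP interaction called 121 member peaks (46.7%) and 33 of 38 member promoter peaks (86.8%), beside 54.4% of all peaks and 76.4% of promoter peaks, and 138 member peaks did not pass. The smallest p was at Peg3 with Usp29 (edgeR FDR 3.48e-21), where the contrast of RF3 differed by -0.66 ± 0.06 and that of RF4 by 0.69 ± 0.06 (TP2 minus TP1, log2), and RF3 held the lowest libraries at TP2 and RF4 at TP1. Inpp5f followed (FDR 1.49e-19), with a change of 0.71 in RF1 and -0.75 in RF3. It had 35.8, 37.4, 25.3, 32.9 and 24.8 CPM in RF1 at TP2, against 19.1, 24.1 and 31.1 in the other RFs, and 23.5, 30.3, 33.4, 26.5 and 25.6 CPM in RF1 at TP1, against 26.2, 34.1 and 46.0 in the other RFs. The RF1 libraries with the lowest values at TP2 were replicates 3 and 5, and without the 3 libraries that stood apart the interaction FDR at Inpp5f was 6.28e-29.

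The next 3 promoters in that order were Ube3a, Zim1 and Grb10. In Ube3a (FDR 1.79e-16) the RF3 contrast changed by -0.59 and the RF4 contrast by 0.62. In Zim1, a zinc-finger gene next to Peg3 that is expressed from the maternal allele (FDR 6.84e-16), the RF1 contrast changed by 0.92 and that of RF5 by -0.79. In Grb10 (FDR 1.86e-13) the RF1 contrast changed by -0.93 and that of RF5 by 0.57, with 18.3, 19.6, 23.8, 22.4 and 31.0 CPM in RF1 at TP2, against 20.9, 26.6 and 34.2 in the other RFs. At Grb10 the RF1 libraries thus stood above all others at TP1, while those of TP2, from different mice, overlapped the other RFs. Of the leading promoter peaks, those of Dio3, Phlda2 and Ddc did not pass the edgeR test of the interaction (FDR 0.0134, 0.0415 and 0.239).

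Averaged over the 5 RFs, TP2 and TP1 differed little at most members, and where they did, TP2 was lower. No member peak was higher and 4 were lower at TP2, 3 of them promoter peaks, beside 1.71% of all peaks higher and 0.932% lower, and 0.253% of promoter peaks higher and 1.37% lower. Igf2 had 0.909, 1.33 and 2.24 CPM (lowest, median, highest of 25 libraries) at TP2, against 1.18, 2.17 and 3.27 at TP1, a log2 fold change of -0.61 ± 0.08 (edgeR FDR 1.19e-09). Dlk1 had 0.877, 1.76 and 2.21 CPM at TP2, against 1.56, 2.33 and 3.17 at TP1 (-0.53 ± 0.07, edgeR FDR 1.62e-09), and Zim1 had 6.49, 8.50 and 16.2 CPM at TP2, against 8.86, 13.4 and 18.4 at TP1 (-0.51 ± 0.05, edgeR FDR 1.56e-15). Without the 3 libraries that stood apart, Zim1 stood at -0.45 and was not called. All 3 overlapped between the TPs. The remaining call was a peak upstream of the open Gnas TSSs (chr2:174295167-174295594), named after its values were seen, with -0.59 ± 0.10 (edgeR FDR 1.78e-07) against a neighbourhood median of -0.06. Igf2, Dlk1 and this Gnas peak had entered the set from 2, 5 and 4 groups. A MACS2 peak lay over Igf2 in 3 of 25 libraries at TP2, against 12 of 25 at TP1, over Dlk1 in 7, against 16, and over the Gnas peak in 4, against 17, so that the choice of peaks favours a lower value at TP2. Of the 4 calls, Zim1 alone lay in a peak from all 10 groups.

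**Figure D5:**
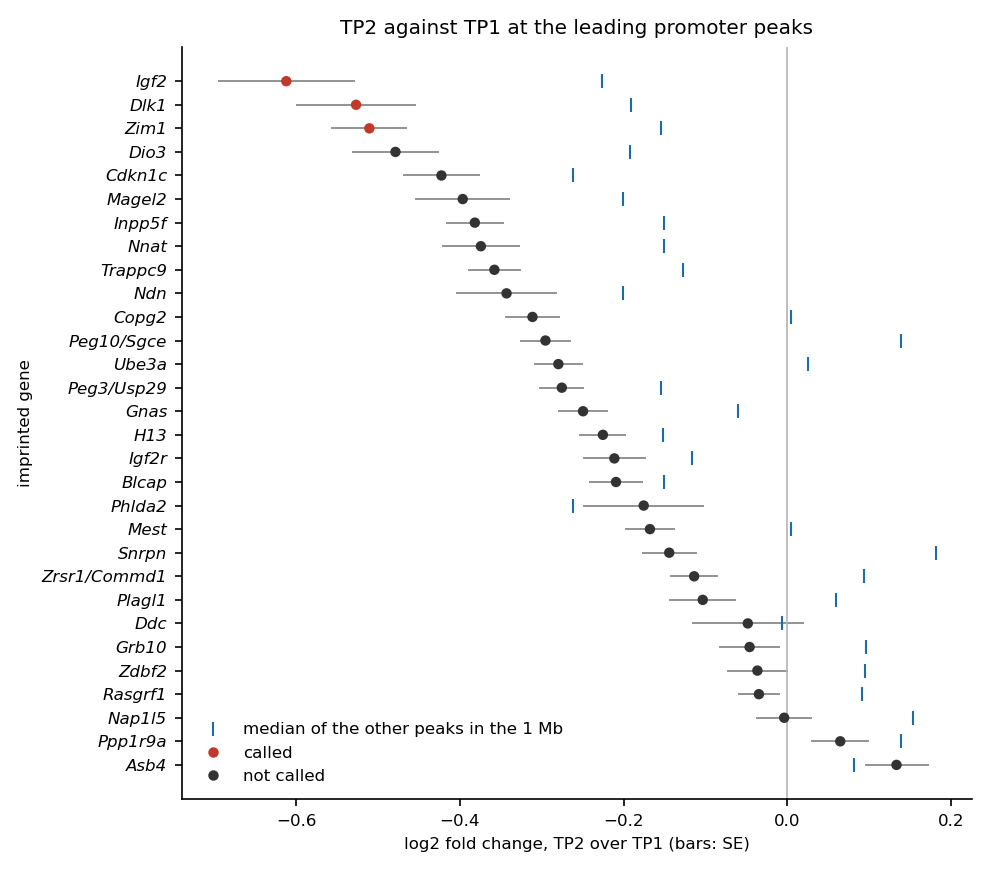
Log2 fold change of the leading promoter peaks, TP2 over TP1 (horizontal; bars are SE), with the median of the other peaks in the same 1 Mb. Igf2, Dlk1 and Zim1 pass both thresholds at -0.61, -0.53 and -0.51, and Asb4 is highest at 0.13.

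Below the size threshold the direction was shared. Of the 38 member promoter peaks 34 were below 0, with a median of -0.22 against -0.14 over all promoter peaks, and 12900 of the 16980 promoter peaks of all genes were also below 0. By FDR alone 25 member promoters (65.8%) were lower and 1 (2.63%) was higher at TP2, beside 52.9% of all promoter peaks lower and 9.31% higher. Dio3, the deiodinase that inactivates thyroid hormone and lies in the Dlk1 domain, stood at -0.48, Cdkn1c at -0.42, Magel2 at -0.40, Inpp5f at -0.38, Nnat (neuronatin) at -0.37 and Trappc9 at -0.36. Asb4 was the only leading promoter that was higher by FDR alone, at 0.13, and Nap1l5, Rasgrf1 and Zdbf2 lay at -0.00, -0.03 and -0.04. On chromosome 7 the median was -0.31 and 11 of 12 promoters were below 0, and on the other chromosomes it was -0.19 and 23 of 26 were. Of the 1277 promoter peaks of all genes on chromosome 7, 1192 were below 0, with a median of -0.24.

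Imprinted genes outside the set and genes of the imprinting machinery were examined in the same way. The peaks of these further imprinted genes were not separate from those of the members, since some of the genes overlap a member. The leading promoter peaks of Peg13, Mcts2, Airn and Rian, for example, were counted in both. Of 96 peaks of 23 further imprinted genes, 44 depended on the RF at TP2 (45.8%) and 62 at TP1 (64.6%), beside 30.8% and 59.1% of all peaks. Among their 23 promoter peaks 15 did at TP2 and 19 at TP1, beside 58.3% and 81.6% of the promoter peaks of all genes. Cd81, a tetraspanin of the Kcnq1 domain, had a log2 fold change of -0.56 in RF3 at TP2 (edgeR FDR 2.05e-10), against a neighbourhood median of -0.31, and Osbpl5 had one of -0.50 in RF1 at TP1. Of 81 peaks of 15 regulators of imprints and DNA methylation, 25 depended on the RF at TP2 (30.9%) and 42 at TP1 (51.9%). These shares stand beside the same 30.8% and 59.1% of all peaks. Tet2, an enzyme that oxidises methylated cytosine, had a log2 fold change of 0.71 in RF1 and -0.56 in RF4 at TP1.

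Peaks called by MACS2 in the single libraries do not use the count tests. The merged peaks were built from them, however, so their presence under a merged peak was partly fixed in advance. They were counted for the members alone, and no share over all promoter peaks stands beside the counts. Of the 38 member promoter peaks, 24 were overlapped by a library's own peak in every TP2 library and 28 in every TP1 library. The Igf2 leading promoter peak was part of the merged set from only 2 of the 10 groups of RF and TP, that of Dlk1 from 5, those of Phlda2 and Ddc from 7, and that of Ndn from 9, while the other leading promoter peaks came from all 10. The weak peaks are therefore the ones whose calls rest on few counts, with means of 66.1 counts per library at Igf2 and 78.6 at Dlk1, against 4263 at Peg3 with Usp29.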

How the data were processed

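ATAC-seq libraries from 50 mice (5 RFs, 2 TPs, 5 replicates each) were analysed. The authors trimmed reads with fastp, aligned them to GRCm38 with Bowtie2, marked duplicates with Picard and called broad peaks with MACS2 in each library with duplicates kept. They merged peaks found in at least 3 of 5 libraries of a group and counted reads in the merged peaks with featureCounts, which ignored duplicates. The deposited table holds raw counts, 2 per read pair, and a column with the number of groups that held the peak. A second deposited table, named as normalized, held the same values and was not used. The deposited peak lists per library give a MACS2 score, a fold enrichment and −log10 p and q values, of which overlap and −log10 q were used here. No column of per-sample values was left unused (0).

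Members and lists were chosen with earlier results of these data known. TSSs came from the RefSeq promoter table for 32 genes and, for Peg10, Sgce, Cdkn1c and Trappc9, from the gene end with at least 1.5 times the counts. Counts were tested over all peaks with edgeR 4.0.16 (TMM, filterByExpr, quasi-likelihood, Benjamini-Hochberg) in R 4.3.3, within each TP with RF and replicate number as terms, and over both TPs for the interaction and for TP. CPM used TMM factors over all 50 libraries. Named with values were every leading promoter peak as a level, members with a call at a promoter, per-library values for the 6 leading promoters and 3 other peaks per TP with the largest called change, the 5 smallest interaction p-values, the largest TP changes, and the nested or domain promoters. Nuclei were sorted in batches with one library of each RF. The replicate number was part of the main fit in place of the batch, although no source used here ties the numbers to the batches. Deviations from group means correlated on average by -0.00542 at TP2 and 0.121 at TP1 between libraries with the same number, against 0.00219 and -0.0296 between others.

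Depth limits precision at weak peaks, where a library held few counts. The labels name separate mice, but p-values measure only the spread between these libraries. Tested on 20000 simulated peaks, the RF test at TP2 found 79 of 100 peaks changed by 0.7 (log2) and 98 of 100 changed by 1, the RF test at TP1 91 and 99, the interaction test 58 and 85, and the TP test 99 and 100. The alternatives were DESeq2 1.42.0, size factors by relative log expression (RLE), no filter, loess and 1 Mb regional offsets, no replicate block, each replicate number left out, near-identical libraries summed, and 3 libraries left out. The last was applied to the fits over both TPs after seeing the data.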

Additional observations from a re-analysis of the deposited data

Results flagged for a closer look

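At 5 leading promoters the RF differences themselves changed between TPs by the test of the RF by TP interaction in edgeR: Peg3 with Usp29 (FDR 3.48e-21), Inpp5f (1.49e-19), Ube3a (1.79e-16), Zim1 (6.84e-16) and Grb10 (1.86e-13). In all, 121 of 259 member peaks passed that test, beside 54.4% of all peaks. In 80 groups of 5 libraries tested for a lone value, 3 held one: the lowest Peg3 and Usp29 library of RF1 at TP2 (99.8 CPM), the lowest Zdbf2 library of RF1 at TP1 (13.6 CPM) and the highest Copg2 library of RF3 at TP1 (29.4 CPM). Chance gives about 1 in 20 such groups.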

How the results depend on the processing

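The number of member peaks that depended on the RF was 77 at TP2 and 108 at TP1. The counts under other settings are for the members alone, without the share of all peaks, so they do not set the members apart. Leaving out each replicate number in turn gave 39 to 92 at TP2 and 89 to 118 at TP1. The regional offset gave 24 and 128, and summing near-identical libraries (no replicate block) gave 24 and 94. Of the 6 pairs called for 1 RF at TP2, leaving out each replicate number gave 3 to 20, summing gave 3, and leaving out RF1 replicates 3 and 5 and RF2 replicate 5 gave 30. Of the 43 at TP1, the regional offset gave 24 and leaving out replicate numbers 36 to 50. The interaction count of 121 was 87 to 126 without single replicate numbers and 83 with the regional offset. The 4 peaks that differed between TPs were 5 to 7 without single replicate numbers, 8 with the loess offset, 2 with the regional offset and 5 with the replicate block. Without the replicate block the counts were 73, 105 and 122 for the RF at TP2, the RF at TP1 and the interaction. With the loess offset 4 promoters turned to the other side of 0 in RF4 at TP1: Peg3 with Usp29 (0.0006), H13 (0.0622), Ube3a (0.0135) and Inpp5f (0.0193). The cause of these changes was not tested. DESeq2 (4 counts), RLE size factors and no filter (6 counts each) left the counts within 1.5 times. Member promoters with a MACS2 peak in every library were 24 at TP2 and 28 at TP1, and 3 and 11 when the peak had to cover at least 50% of the merged peak. The depth of 5111223 counts in the shallowest library limits weak peaks most.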
